A study of Mus musculus with 8 samples.

Results

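Immediate-early genes that lie outside the AP-1 and EGR families were followed in MLO-Y4 cells after a laser exposure. They are Ier2, Ier3, Ier5, Nr4a1, Nr4a2, Nr4a3, Myc, Phlda1 and Csrnp1, a list of 9 of the 55359 features in the count table, chosen by name. This list and the related lists below were chosen with earlier results of these data known. Their shares against those of all features are therefore not independent of the data. All 9 genes passed the filter on low counts that left 15164 features. MLO-Y4 is an immortalised mouse line that resembles osteocytes, the mechanosensitive cells inside bone. The line came from a transgenic mouse in which the osteocalcin promoter drives the SV40 large T antigen, and the labels give its genotype as wild type. The 4 irradiated libraries came from cells in 35-mm dishes exposed for 1 min to a pulsed Er:YAG laser, an infrared laser of 2940 nm, at 6 J/cm2 from a distance of 25 cm after the medium was taken off. The 4 control libraries came from non-irradiated cells, and whether their medium was also taken off is not given in the sources used here. Cells of both groups grew on collagen-coated dishes in serum-containing medium, had been seeded 72 h before irradiation, and gave RNA 6 h after it.

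Immediate-early genes are transcribed within minutes of a growth factor, stress or mechanical stimulus from factors already present in the cell, with no need for new protein. Kinases of the ERK and p38 cascades and cyclic AMP signalling act on SRF, its ETS partners and CREB at their promoters, and many of the mRNAs carry AU-rich elements in the 3′ untranslated region that mark them for rapid decay. In osteoblasts and osteocytes, parathyroid hormone, prostaglandins and fluid flow are known inducers of such genes.

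Library totals ran from 43786209 to 51734166 estimated counts. Following the column numbers of the deposited table, the control libraries are C5, C6, C7 and C8 and the irradiated ones L5, L6, L7 and L8. Levels are in CPM, the usual count unit scaled to library depth, as mean ± SD with n = 4. The labels do not say whether the 4 libraries of a group were separate cultures, so p-values measure the spread between these libraries, which may be technical. Of 7 osteocyte markers, Pdpn, Gja1 and Phex were above 1 CPM on average while Sost, Mepe and Fgf23 had no count in any library. The summed osteocyte markers ran from 738.2 to 764.5 CPM in control and from 926.7 to 960.2 CPM in irradiated libraries, with Pdpn and Gja1 higher (log2 fold changes 0.32 and 0.35). The 4 neuronal markers summed to 8.52 to 9.98 CPM in control and 12.97 to 17.08 CPM in irradiated libraries, with Snap25 and Syt1 at 0, and Tubb3, the 1 marker of the 4 with enough counts to test, rose from 9.09 to 14.7 CPM (edgeR adjusted p = 7.96e-05). Fibroblast markers summed to 232.7 to 250.4 CPM in control and 262.2 to 286.4 CPM in irradiated libraries, with Pdgfra 1.14-fold higher. The sums of the osteoblast markers (1103 to 1235 against 1177 to 1272 CPM, mostly Col1a1) and of the macrophage and osteoclast markers (77.74 to 89.85 against 81.8 to 90.6 CPM) overlapped between the groups, but single markers moved. Alpl (edgeR adjusted p = 0.0037) and Runx2 (0.005) rose, Csf1r rose 1.85-fold (1.06e-07) and Ctsk fell (0.0188), while the macrophage markers Ptprc, Adgre1 and Itgam were at 0. Acp5 was at 0 too. Cd68 lay the other way from Csf1r, at 4.445 CPM in control and 3.517 CPM in irradiated cells. Its groups did not overlap, but it did not pass (edgeR adjusted p = 0.193). Endothelial, epithelial, adipocyte and skeletal muscle markers each summed to under 1 CPM in every library. The part of these markers in the results was not tested.

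The 3 NR4A genes carry 4 copies each of the core of the cyclic AMP response element (CRE) within 250 bases before their start, and their promoters are shown because no other window of the 9 genes held more than 2. RefSeq promoter windows (GRCm38.p6, 250 bases before to 50 bases after a start) were matched for 6 of the 9 genes, Ier3, Ier5, Nr4a1, Nr4a2, Nr4a3 and Csrnp1. The windows are printed 5′ to 3′ on the gene strand, with the core TGACG, read on either strand, in capitals. Nr4a1 lies at chr15:101266596-101266895 (plus strand), Nr4a2 at chr2:57123954-57124253 (minus strand) and Nr4a3 at chr4:48045055-48045354 (plus strand).
Nr4a1: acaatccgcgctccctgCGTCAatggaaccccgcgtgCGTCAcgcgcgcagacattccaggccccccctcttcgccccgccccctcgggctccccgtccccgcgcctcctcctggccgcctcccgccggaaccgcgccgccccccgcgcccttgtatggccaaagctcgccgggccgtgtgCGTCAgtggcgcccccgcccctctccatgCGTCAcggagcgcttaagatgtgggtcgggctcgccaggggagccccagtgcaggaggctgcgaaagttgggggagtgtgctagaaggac
Nr4a2: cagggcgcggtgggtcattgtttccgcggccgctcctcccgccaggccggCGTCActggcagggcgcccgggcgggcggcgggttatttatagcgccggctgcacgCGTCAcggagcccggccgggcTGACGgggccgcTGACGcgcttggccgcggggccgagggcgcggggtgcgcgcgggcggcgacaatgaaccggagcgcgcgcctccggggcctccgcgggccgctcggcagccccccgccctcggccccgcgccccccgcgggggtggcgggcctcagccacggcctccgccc
Nr4a3: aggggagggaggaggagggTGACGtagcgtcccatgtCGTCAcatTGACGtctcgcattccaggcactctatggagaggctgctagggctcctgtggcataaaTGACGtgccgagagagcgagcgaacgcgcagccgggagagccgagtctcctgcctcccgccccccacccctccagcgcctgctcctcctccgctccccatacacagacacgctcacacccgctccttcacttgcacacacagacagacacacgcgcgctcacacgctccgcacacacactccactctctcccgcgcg
At least 4 cores were found in 76 of 32851 RefSeq promoter windows of the same length (0.231%), and at least 1 in 20.8%. The full palindrome TGACGTCA, found in 1.79% of all windows, was in none of the windows of the 6 genes. Csrnp1 has 4 annotated starts, whose windows held 1 or 2 cores each, and Ier3 and Ier5 held none. One Csrnp1 window also held 2 copies of the AP-1 motif TGANTCA (7.81% of all windows hold at least 1). The NF-kB motif, searched by name on both strands and found in 4.51% of all windows, matched once in Ier3 and once in Nr4a1, and the CArG box of SRF, found in 1.63%, matched in none of the 6 genes. These matches are letters in a window and show no binding. The NR4A windows were picked for printing after the matches were seen.

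**Figure D1:**
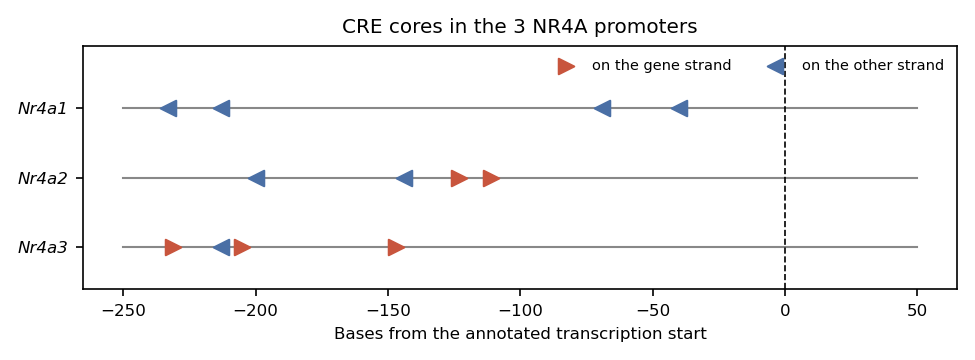
Positions of the CRE core TGACG in the promoter windows of Nr4a1, Nr4a2 and Nr4a3. The x axis gives bases from the annotated start (dashed line), and right-pointing red and left-pointing blue triangles mark matches on the gene strand and on the other strand. Each gene has 4 matches, all before the start.

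After irradiation 7 of the 9 genes rose, 0 fell, and Nr4a2 and Nr4a3 did not pass the test. A call needed an adjusted p under 0.05 over all 15164 features (Benjamini-Hochberg) in edgeR's quasi-likelihood test, and no gene of the 9 was lower at an unadjusted p under 0.05, or in DESeq2. The same rule called 8.22% of all features higher and 6.75% lower. As the 9 genes were chosen with earlier results known, this comparison is not independent of the data. The log2 fold changes of the 9 ran from 0.11 to 0.68 with a median of 0.34, against a median of -0.0065 over all features and 0.25 over the 1247 that were higher. With library totals alone in place of TMM scaling, 43.8% of all changed features were higher rather than 54.9%, and 6 of the 9 genes rose. In 6 of the 9 genes every irradiated library lay above every control library, as in 9.76% of all features, and in 0 every irradiated library lay below, as in 8.78% of all features. In bulk RNA a change in the share of cells that express a gene and a change in level per cell cannot be told apart.

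**Figure D2:**
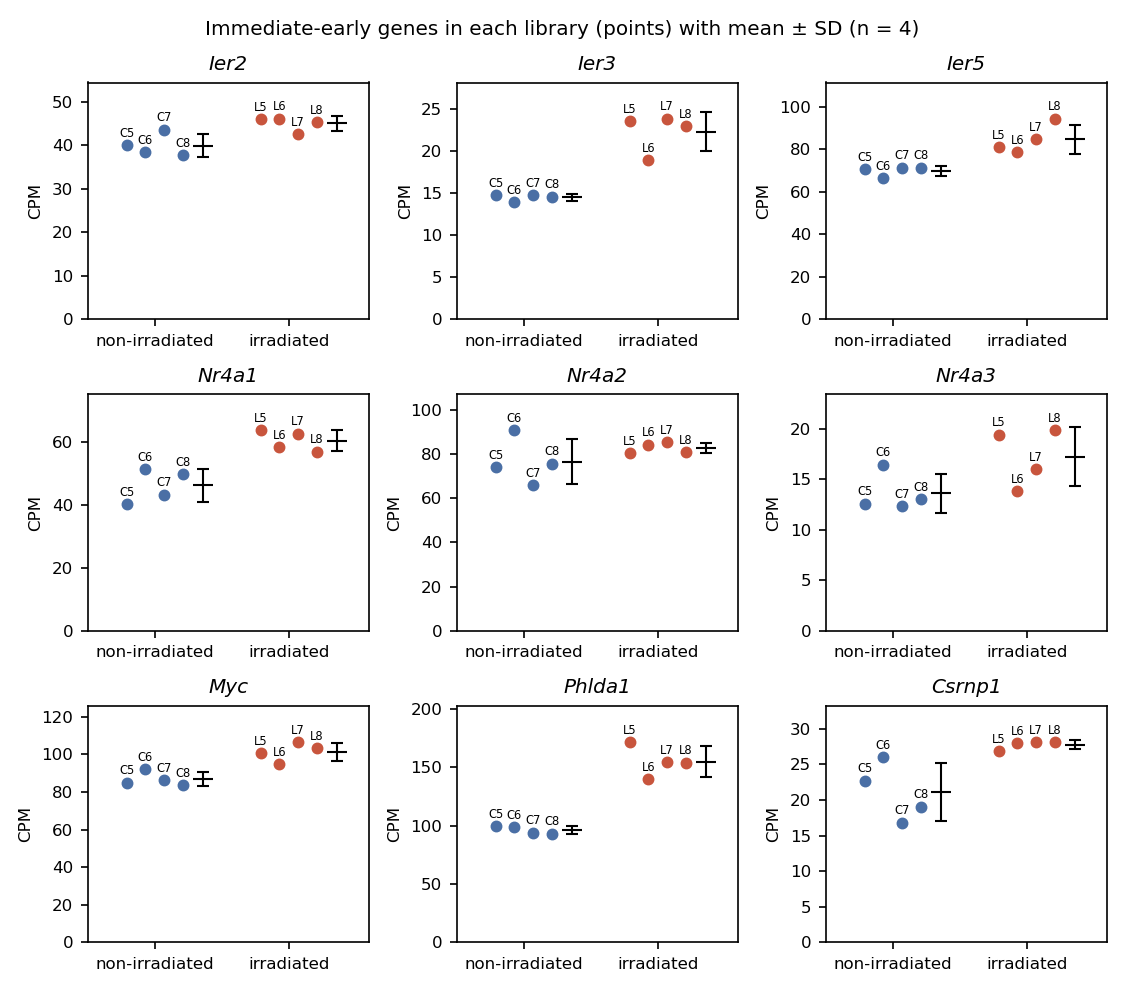
CPM of the 9 genes (y axes, each from 0) in the 4 non-irradiated (blue) and 4 irradiated (red) libraries, with the mean and SD of each group as a bar. The groups are apart in Ier3, Ier5, Nr4a1, Myc, Phlda1 and Csrnp1 and overlap in Ier2, Nr4a2 and Nr4a3.

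Phlda1 (ENSMUSG00000020205.9), which encodes a pleckstrin homology-like domain protein with roles in cell survival and growth factor signalling, showed the largest change of the 9. Its level was 99.89, 98.63, 94.15 and 93.21 CPM in C5 to C8 and 171.87, 139.99, 154.24 and 153.96 CPM in L5 to L8. The control libraries sat within a narrow band, and even L6, the lowest irradiated library, lay well above it. The mean rose 1.61-fold to 155.0 ± 13.1 CPM from 96.5 ± 3.29 CPM in control cells. In log2 this is 0.68 with SE 0.05 (edgeR adjusted p = 2.24e-08). By p-value Phlda1 ranked at place 51 of 15164 features. An antisense gene, Gm28592, shares 727 exon bases with it on the other strand and had at most 10 counts in any library.

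Ier3 (ENSMUSG00000003541.7), also known as IEX-1, is a stress-inducible regulator of apoptosis and of ERK signalling and had the largest log2 fold change of the IER genes. It stood at 14.73, 13.89, 14.76 and 14.56 CPM in C5 to C8 and at 23.57, 18.89, 23.87 and 22.93 CPM in L5 to L8. As with Phlda1, L6 was the lowest irradiated library and still above all controls. Its mean of 14.5 ± 0.406 CPM became 22.3 ± 2.32 CPM, a 1.54-fold rise with a log2 fold change of 0.62 ± 0.084 (SE, edgeR adjusted p = 2.6e-05).

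Ier5 (ENSMUSG00000056708.6), whose protein binds the phosphatase PP2A and the heat shock factor HSF1, read 70.47, 66.37, 71.28 and 71.31 CPM in C5 to C8 and 81.07, 78.73, 84.66 and 94.39 CPM in L5 to L8. The groups did not overlap, and L8 was the highest library. Ier5 averaged 69.9 ± 2.36 CPM in control and 84.7 ± 6.9 CPM in irradiated cells, 1.21-fold higher (log2 fold change 0.28 ± 0.053 SE, edgeR adjusted p = 0.00102).

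Ier2 (ENSMUSG00000053560.6), which encodes a nuclear protein induced by growth factors, had the smallest rise that passed the test. Its values were 40.03, 38.4, 43.53 and 37.67 CPM in C5 to C8 against 45.98, 46.1, 42.55 and 45.32 CPM in L5 to L8. The groups overlapped, since C7 exceeded L7. Control cells averaged 39.9 ± 2.61 CPM and irradiated cells 45.0 ± 1.66 CPM (1.13-fold, log2 fold change 0.17 ± 0.058 SE, edgeR adjusted p = 0.0485). This call is fragile: it was lost without C5 (adjusted p = 0.0833), C6 (0.0925), C8 (0.145), L5 (0.12), L6 (0.0988) or L8 (0.107), and under 6 of the other 10 alternatives.

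The 3 IER genes are named for their induction and do not form one sequence family. Whether they changed by different amounts was asked from the log2 ratio of 2 genes within each library, which needs no scaling. Ier3 relative to Ier5 was higher after irradiation by 0.34 (log2 ratio -2.27 ± 0.016 in control, -1.93 ± 0.143 in irradiated cells), and Ier2 relative to Ier3 was lower by 0.44 (1.46 ± 0.078 against 1.02 ± 0.192). Both gave p = 0.0286 in a two-sided exact permutation test, the smallest p that 4 against 4 libraries allow. Over the 6 pairs tested within the IER and NR4A genes the adjusted p was 0.0571, so neither passed. At the smallest p, the adjusted p depends only on how many of the 6 pairs share it. Missing the threshold therefore does not show that these genes changed equally. Ier2 relative to Ier5 differed by -0.10 (exact permutation p = 0.257, adjusted 0.343). Without L6 the adjusted p of the first 2 pairs was 0.0429, though their own p was again the smallest possible. The fall came from Nr4a2 relative to Nr4a3, which then shared the smallest p.

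The NR4A genes encode orphan nuclear receptors, Nur77 (Nr4a1), Nurr1 (Nr4a2) and NOR-1 (Nr4a3), which bind DNA without a known hormone and whose activity follows their amount. Of the 3, Nr4a1 alone passed the test. Nr4a1 (ENSMUSG00000023034.8) read 40.35, 51.52, 43.35 and 49.9 CPM in C5 to C8 and 63.86, 58.53, 62.82 and 57.06 CPM in L5 to L8. All irradiated libraries lay above C6, the highest control. The mean was 46.3 ± 5.3 CPM in control and 60.6 ± 3.28 CPM in irradiated cells, 1.31-fold higher (log2 fold change 0.39 ± 0.0697 SE, edgeR adjusted p = 0.00074).

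Nr4a2 (ENSMUSG00000026826.14) stood at 73.88, 90.62, 65.88 and 75.48 CPM in C5 to C8 and 80.28, 84.18, 85.16 and 80.74 CPM in L5 to L8. Library C6 held the highest value of all 8, and the irradiated libraries lay close together inside the range of the controls. The log2 fold change was 0.11 with a 95% interval from -0.05 to 0.28 (edgeR adjusted p = 0.389). Without C6 it was 0.20 and passed (adjusted p = 0.00846).

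Nr4a3 (ENSMUSG00000028341.10) stood at 12.6, 16.44, 12.35 and 13.03 CPM in C5 to C8 and 19.41, 13.81, 15.98 and 19.86 CPM in L5 to L8. The control C6 exceeded the irradiated libraries L6 and L7, so the groups overlapped. The log2 fold change was 0.34, with a 95% interval from 0.09 to 0.59 and a wider error than in Nr4a1 (SE 0.119 against 0.0697), and it missed the threshold (edgeR adjusted p = 0.0624). It passed without C6 (0.45, adjusted p = 0.0098) or without L6 (0.44, adjusted p = 0.0121). It also passed in DESeq2 (adjusted p = 0.0322), with a filter of 1 CPM in 4 libraries (0.0431) and with counts divided by 4 (0.0447).

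That 1 NR4A gene passed and 2 did not is no difference between them in itself. The log2 ratio of Nr4a1 to Nr4a2 went from -0.72 ± 0.142 to -0.45 ± 0.087, higher by 0.27 (exact permutation p = 0.0286, adjusted 0.0571, and 0.0429 without L6). Nr4a1 relative to Nr4a3 differed by 0.06 (exact permutation p = 0.686, adjusted 0.686) and Nr4a2 relative to Nr4a3 by -0.22 (exact permutation p = 0.286, adjusted 0.343, and 0.0429 without L6). Hence 0 of the 6 within-group pairs passed after adjustment, while 3 had an unadjusted exact permutation p under 0.05. These 3 had the smallest p possible, so their failure after adjustment does not show equal changes. Without L6 the adjusted p of Nr4a1 to Nr4a2 fell only because Nr4a2 relative to Nr4a3 then shared the smallest p.

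Myc (ENSMUSG00000022346.18), the transcription factor that drives growth and ribosome production with its partner MAX, rose by a small amount. It read 84.99, 92.29, 86.21 and 83.68 CPM in C5 to C8 and 100.5, 94.89, 106.61 and 103.15 CPM in L5 to L8. The lowest irradiated library, L6, was just above the highest control, C6. Myc averaged 86.8 ± 3.81 CPM in control and 101.3 ± 4.95 CPM in irradiated cells, 1.17-fold higher (log2 fold change 0.22 ± 0.045 SE, edgeR adjusted p = 0.0018).

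Csrnp1 (ENSMUSG00000032515.9), a cysteine- and serine-rich nuclear protein also known as AXUD1, read 22.69, 25.98, 16.79 and 19.05 CPM in C5 to C8 and 26.85, 27.96, 28.1 and 28.15 CPM in L5 to L8. Control libraries scattered widely and irradiated ones hardly at all (coefficient of variation 19.15% against 2.22%). Csrnp1 averaged 21.1 ± 4.05 CPM in control and 27.8 ± 0.615 CPM in irradiated cells, 1.31-fold higher (log2 fold change 0.39 ± 0.104 SE, edgeR adjusted p = 0.017). Without C8 it missed the threshold (adjusted p = 0.0606). The antisense gene 1700019L13Rik shares 224 exon bases with it on the other strand and had 12 to 21 counts per library.

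**Figure D3:**
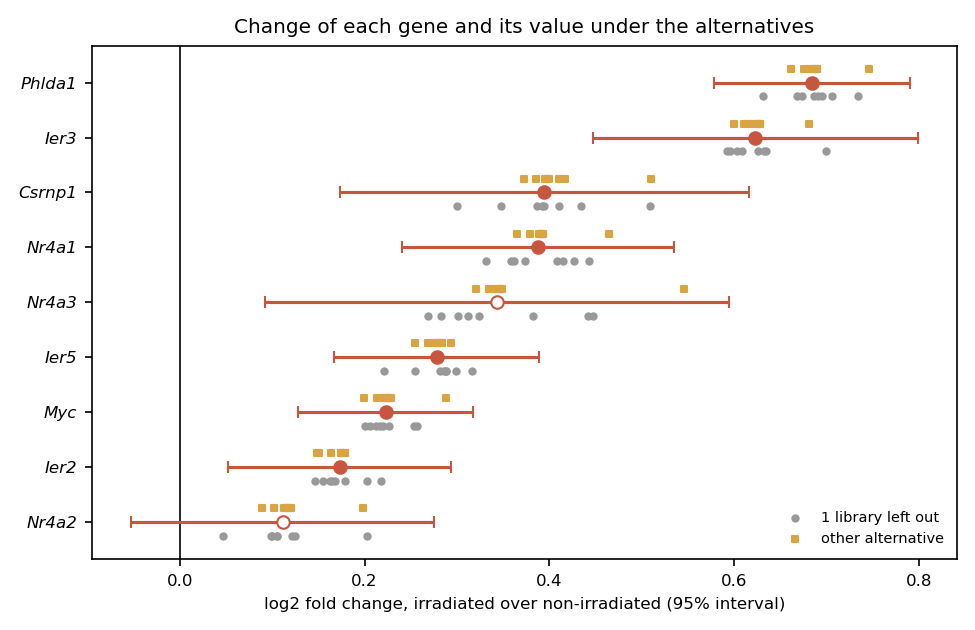
Log2 fold change of the 9 genes (x axis, irradiated over non-irradiated) with its 95% interval (red, filled where the edgeR test was passed), the values with 1 library left out (grey) and the values under the other alternatives (yellow). Phlda1 and Ier3 stand highest at 0.68 and 0.62, and all values of all 9 genes are above 0, with the interval of Nr4a2 reaching below it.

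Library C6 was the highest control for 5 of the 9 genes, the 3 NR4A genes, Myc and Csrnp1, and L6 was the lowest irradiated library for 5, Ier3, Ier5, Nr4a3, Myc and Phlda1. The other way, C6 was the lowest control for 2, Ier3 and Ier5, and L6 was the highest irradiated library for 1, Ier2. How often C6 and L6 held these places over all features was not counted, so these counts are no result about the 9 genes. The same libraries were the nearest to each other on the first principal component of all features, C6 at -15.8 against -25.5 to -20.1 for the other controls and L6 at 11.1 against 19.1 to 35.8 for the other irradiated libraries. Without both, in an alternative chosen after this was seen, 8 of the 9 genes rose, Nr4a3 with a log2 fold change of 0.55 (edgeR adjusted p = 0.000737) and Nr4a2 with 0.20 (0.0144), while Ier2 did not pass (0.145). C6 and L6 were left out because they lay nearest the other group, so larger differences were likely from that choice itself. Without C6 alone, 1501 of all features were already higher, against 1247 with all libraries. These calls are therefore no support for a rise of Nr4a2 or Nr4a3. What sets C6 and L6 nearer to each other was not tested.

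Levels of the 9 genes were compared per exon length, in CPM per kilobase of the union of annotated exons. In control cells the order was Phlda1 (43.75 ± 1.49), Myc (31.9 ± 1.4), Ier2 (26.2 ± 1.72), Ier5 (21.3 ± 0.719), Nr4a2 (18.8 ± 2.55), Nr4a1 (13.2 ± 1.51), Ier3 (12.8 ± 0.359), Csrnp1 (6.09 ± 1.17) and Nr4a3 (2.27 ± 0.319). The ranges of the control libraries overlapped between the neighbours Ier5 and Nr4a2 and between Nr4a1 and Ier3, and did not between the other neighbours. Of the 9 genes 8 were above the median of all tested features (5.4 CPM per kilobase) and Nr4a3 was below it. Phlda1 stood at percentile 91.85 and Nr4a3 at percentile 33.6 of tested features, so most of these genes were well expressed without irradiation. With the length of the longest transcript, the level of Nr4a1 was 18.1, Nr4a2 21.4, Myc 37.1 and Phlda1 49.5 CPM per kilobase. Nr4a2 then stood just above Ier5 (21.3) and Nr4a1 further above Ier3 (12.8), so the order depends in part on the length used.

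**Figure D4:**
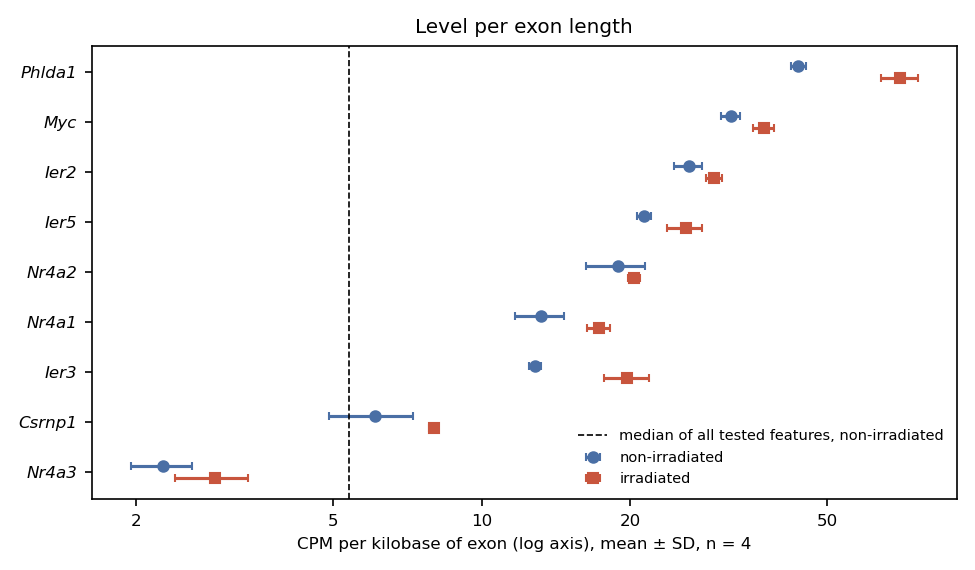
CPM per kilobase of exon (x axis, log scale) of the 9 genes in non-irradiated (blue circles) and irradiated (red squares) cells, mean ± SD, n = 4, with the median of all tested features in non-irradiated cells as a dashed line. Phlda1 had the highest level (43.75 in control cells) and Nr4a3, at 2.27, lies left of the median of 5.4.

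Short genes and AU-rich 3′ untranslated regions are known traits of this class. Of the 9 genes 8 span less than the median of 23.1 kb of 12359 tested protein-coding genes, from 1.24 kb in Ier3 to 20.5 kb in Nr4a1, and Nr4a3 spans 41.3 kb. The longest transcript has 1 exon in Ier2 and Ier5, 2 in Ier3 and Phlda1 and 3 in Myc, against a median of 8. The AU-rich pentamer ATTTA was searched on the sense strand of the 3′ untranslated region of the longest coding transcript (GENCODE M21). Ier3 had 5 pentamers in 613 bases, or 8.16 per kilobase, a density reached by 1.58% of tested protein-coding genes, whose median was 1.28 per kilobase. Nr4a1 (5.52), Phlda1 (4.9), Csrnp1 (4.65) and Myc (4.52 per kilobase) also had densities that under 10% of the tested genes reach. Nr4a2 had 2.26, Nr4a3 1.62 and Ier5 0.933 per kilobase, and Ier2 had none. The longer motif TTATTTATT, in 8.09% of 12247 tested genes with a 3′ untranslated region, was in Phlda1 and Csrnp1. The first copy in each is shown within 30 bases with the motif in capitals.
Phlda1: tggattatgaTTATTTATTagtttttttat
Csrnp1: cactctgaatTTATTTATTtttttatgttt
These windows show letters of the annotation, not measured decay.

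Only 3 close relatives of the 9 genes could be tested, and none passed. Of 7 relatives (Ier5l, Phlda2, Phlda3, Csrnp2, Csrnp3, Mycn and Mycl), 3 were expressed enough to test, and 0 passed with edgeR, with DESeq2 or at an unadjusted p under 0.05. The same edgeR rule called 15% of all features in either direction, so 0 of 3 is no result about these relatives. Phlda3, a p53-induced relative of Phlda1, gave a log2 fold change of -0.06 (SE 0.031, edgeR adjusted p = 0.276), and Csrnp2 gave 0.08 (adjusted p = 0.616). Every irradiated library lay below every control library in Phlda3, as in 8.78% of all features.

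In the MAX network, Mxd1, Mnt, Mxd4 and Mxd3 fell, and another antagonist, Mxi1, did not pass the test and lay above 0. MXD proteins, MXI1 and MNT pair with MAX in place of MYC and repress the sites that MYC activates. Of 9 tested genes of this network 4 fell and 5 did not pass, against 6.75% of all features lower, and 0 rose (0 also in DESeq2). At an unadjusted p under 0.05, 2 were higher, Mxi1 (log2 fold change 0.22, edgeR adjusted p = 0.0979) and Mlx (0.14, adjusted p = 0.0814). Mga, a further MAX partner, gave 0.10 (adjusted p = 0.456). These 3 genes, outside the naming rule, are given after their values were seen. Mxd1 averaged 28.6 ± 1.6 CPM in control and 18.1 ± 2.04 CPM in irradiated cells, 1.59-fold lower (log2 fold change -0.67 ± 0.082 SE, edgeR adjusted p = 8.96e-06). Mnt fell 1.46-fold, from 38.05 ± 2.87 to 26.1 ± 0.501 CPM (adjusted p = 4.94e-06), and Mxd4 fell 1.35-fold, from 38.7 ± 1.37 to 28.7 ± 1.98 CPM (adjusted p = 5.78e-05). Mxd3 fell 1.22-fold (log2 fold change -0.29, adjusted p = 0.0275), a call lost without C7 (0.104), C8 (0.0673), L5 (0.0602), L6 (0.0527) or L8 (0.0947). Max itself, named as the shared partner and not by its values, averaged 76.98 CPM without and 79.5 CPM with irradiation, a log2 fold change of 0.05 (adjusted p = 0.568). The median log2 fold change over these 9 genes was 0.05.

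**Figure D5:**
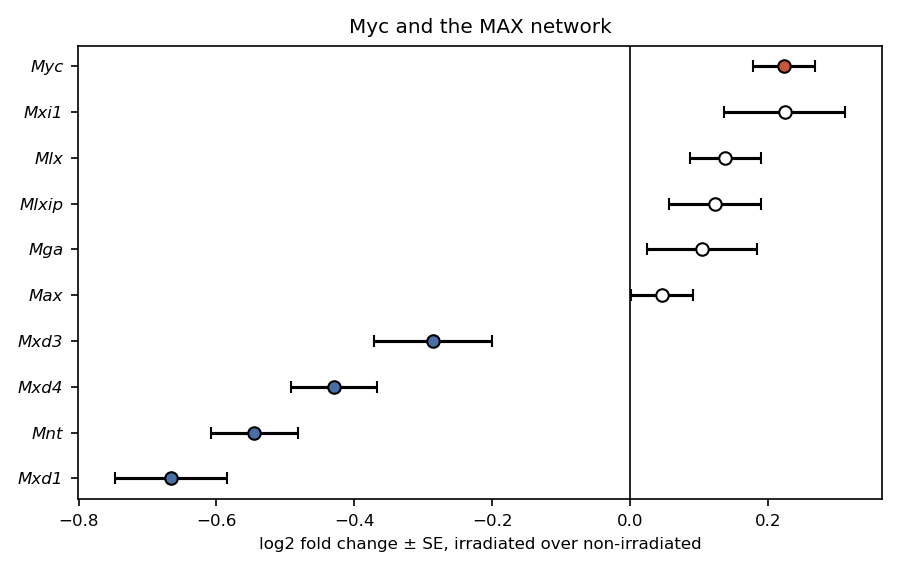
Log2 fold change ± SE (x axis, irradiated over non-irradiated) of Myc and 9 genes of the MAX network, red for higher, blue for lower and white for not past the edgeR test. Mxd1, Mnt, Mxd4 and Mxd3 lie between -0.67 and -0.29, and Myc lies at 0.22.

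Genes with MYC sites that are commonly used as its targets went both ways. Of 25, 7 rose (28% against 8.22% of all features), 3 fell (12% against 6.75%) and 15 did not pass, with a median log2 fold change of 0.05 against -0.0065 over all features. Nop56, a nucleolar protein of ribosome production, rose 1.26-fold from 161.6 ± 9.4 to 202.9 ± 9.36 CPM (edgeR adjusted p = 2.03e-05), and the nucleolar Gnl3 rose 1.15-fold (adjusted p = 0.00831). E2f2 and Ccnd2, both of the cell cycle, fell with log2 fold changes of -0.32 (adjusted p = 0.0393) and -0.22 (adjusted p = 0.000651). E2f2 lost its call without C5 (0.0962), C6 (0.119), L5 (0.059), L7 (0.11) or L8 (0.116). Of 16 genes that control MYC protein or act with it, 1 rose and 0 fell (0 also in DESeq2 and at an unadjusted p under 0.05). The share of 6.25% higher is near the 8.22% of all features and no result about the list. The gene that rose was the deubiquitinase gene Usp7 (1.12-fold, edgeR adjusted p = 0.00192). There 2 rose in DESeq2 and 4 without C6.

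Receptor partners and coregulators of NR4A went both ways. Of 9 tested, 2 rose and 1 fell, 22.2% and 11.1% against 8.22% and 6.75% of all features. The coactivator gene Ncoa3 rose (log2 fold change 0.20, edgeR adjusted p = 0.0205) and Rxrb, a heterodimer partner, fell (-0.20, adjusted p = 0.0292). Both calls are fragile. Ncoa3 was lost without C7 (0.0685) or L7 (0.074). Rxrb was lost without C7 (0.129), L5 (0.108), L6 (0.0675) or L7 (0.0824).

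Among 23 tested transcription factors and kinases that act on immediate-early promoters, 3 rose, 2 fell and 18 did not pass. The shares, 13% higher and 8.7% lower, are near those of all features (8.22% and 6.75%), so the counts are no result about the list. Srf, the serum response factor and itself an immediate-early gene, rose 1.43-fold from 72.0 ± 4.73 to 103.1 ± 7.47 CPM (edgeR adjusted p = 2.15e-06), and Elk3, one of its ETS partners, rose 1.17-fold (adjusted p = 0.0022). Mapk14, which encodes p38 alpha, rose by 0.16 on the log2 scale (adjusted p = 0.0182), a call lost without C8 (0.0579) or L7 (0.0599). Map2k2, a kinase that activates ERK, fell by 0.15 (adjusted p = 0.034). That call was held without C6 or L5, and lost without each other library, with adjusted p between 0.0591 (L8) and 0.15 (L7). The related kinase Map2k1, which the naming rule left out and which is given because its values were seen, also fell (-0.15, adjusted p = 0.01).

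Other primary-response genes had 14 of 33 tested members higher, 42.4% against 8.22% of all features, and 0 lower, against 6.75% of all features (0 also in DESeq2 and at an unadjusted p under 0.05). This list too was chosen with earlier results known. Dusp5, a phosphatase that switches ERK off, rose most, 1.93-fold (edgeR adjusted p = 6.46e-10). Plk3, a stress-responsive kinase, rose 1.49-fold from 15.5 ± 0.755 to 23.0 ± 1.51 CPM (adjusted p = 2.51e-05). Plaur, the urokinase receptor gene, rose 1.46-fold from 167.3 ± 13.1 to 244.3 ± 19.6 CPM (adjusted p = 0.000204). Arc, best known from neurons, rose 1.45-fold from 39.1 ± 4.63 to 56.4 ± 5.94 CPM (adjusted p = 0.000865). Among 18 genes of AU-rich mRNA decay, Zfp36l2 (1.39-fold, adjusted p = 1.05e-07) and Hnrnpd (log2 fold change 0.24, adjusted p = 6.19e-05) rose, with 15 of the list not past the test. The shares of 11.1% higher and 5.56% lower are near those of all features (8.22% and 6.75%). Zfp36l1 fell (-0.16, adjusted p = 0.0393), a call held only without L6 among the 8 libraries left out in turn (adjusted p up to 0.143, without L5).

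Among 12 HSF1 targets, examined since IER5 acts on HSF1, 4 rose, 0 fell (0 also in DESeq2 and at an unadjusted p under 0.05) and 8 did not pass. The share higher was 33.3%, against 8.22% of all features, with 6.75% of all features lower. This list was also chosen with earlier results known. Of the 4 that rose, Ppp1r15a is also counted among the other primary-response genes. The 8 not past include Hspa1a (log2 fold change 0.14, edgeR adjusted p = 0.619) and Hspa1b (0.125, 0.403), given outside the naming rule after their values were seen. Hsph1, a chaperone of the HSP110 class, rose 1.22-fold (edgeR adjusted p = 2.54e-05). Ppp1r15a (0.24, adjusted p = 0.0257), Hspd1 (0.11, 0.0221) and Hsp90aa1 (0.09, 0.0194) rose by less on the log2 scale. Each of these 3 calls was lost with 1 library left out, Ppp1r15a without C7 (0.0742), C8 (0.0824), L7 (0.0525) or L8 (0.0878), and Hspd1 without C5 (0.0829), C7 (0.058), L5 (0.0764) or L8 (0.0815). For Hsp90aa1 those libraries were C5 (0.0563), C8 (0.0507), L5 (0.0628), L7 (0.0639) and L8 (0.0637).

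For each gene that rose, the 2 genes most like it over the 8 libraries were found among 11237 genes by the root mean square difference of log2 CPM relative to the control mean. Phlda1 was nearest to Uap1 (0.0678) and Col8a1 (0.0732), Ier3 to Mmp11 (0.0606) and Smad7 (0.0674), and Ier5 to Polr3d (0.0334) and Zfp703 (0.0345). Nr4a1 was nearest to Alcam (0.0646) and Tnfrsf9 (0.0805), and Csrnp1 to Dusp1 (0.0792) and Kcnh1 (0.0812). Myc was nearest to Atp8b2 (0.0242) and Cep170 (0.0285), and Ier2 to Vps9d1 (0.0135) and Dnajc25 (0.0312). Of these neighbours, Vps9d1 (edgeR adjusted p = 0.119), Dnajc25 (0.0687) and Kcnh1 (0.0779) did not themselves pass the test. No member of the 9 was among the 2 nearest genes of another. Among 11237 genes that outcome was likely in any case, and it does not show that the 9 genes moved apart.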

How the data were processed

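RNA-seq of MLO-Y4 cells gave 4 non-irradiated and 4 irradiated libraries of poly(A) RNA, per the labels. Per the submitters' processing notes the build was GRCm39 and the tools included HISAT2 2.2.1, StringTie 2.1.7, Trimmomatic 0.39, FastQC 0.11.9 and DESeq2 1.32.0. Settings, annotation release and use of strand were not given in the sources used here, so the antisense partners named above are uncertain. The authors deposited estimated counts as whole numbers, not normalized. The value 4 occurs more often (6096) than 3 (4006) or 5 (2428), so a fragment may add several counts and counting error may exceed that of single reads. All 8 value columns were used. Columns are numbered 5 to 8 and titles 1 to 4, so a column was tied to a group and not to a sample.

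Identifiers without version were matched to GENCODE M21 symbols (52083 of 55359, with 99.64% of counts). Lengths and 3′ untranslated regions also come from M21, which describes GRCm38. Features were filtered with filterByExpr (minimum count 10), scaled by TMM and tested with edgeR 4.0.16 (R 4.3.3, robust quasi-likelihood fit, group as the only term) at an adjusted p of 0.05. The SE is the log2 fold change divided by the square root of F. The test was checked on simulated data. The members and lists were chosen with earlier results of these data known. All 9 members are named. Of each related list, the 4 called genes of largest absolute log2 fold change are named (fewer where fewer passed), or the 2 of lowest p where none passed. The values of 1 called gene are not reported here. The planned rule for printing promoters (a full CRE or a CArG box) selected none. Alternatives were DESeq2 1.42.0, limma-voom (3.58.1), other scalings and filters, counts divided by 4, a replicate block and leaving out libraries.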

Additional observations from a re-analysis of the deposited data

Results flagged for a closer look

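Of 18 groups of 4 libraries checked (9 genes in 2 groups), 3 held a library whose gap to the nearest other value, divided by the group's range, was above Dixon's 95% critical value, and chance marks about 1 group in 20. Ier5 stood at 66.37 CPM in C6, below 70.47 to 71.31 CPM in the other controls. Nr4a3 stood at 16.44 CPM in C6, above 12.35 to 13.03 CPM in the other controls. Csrnp1 stood at 26.85 CPM in L5, below 27.96 to 28.15 CPM in the other irradiated libraries, a small gap in a narrow group.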

How the results depend on the processing

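Ier3, Ier5, Nr4a1, Myc and Phlda1 kept their direction and call under each of the 18 alternatives, and no gene of the 9 changed sign. Between 5 and 8 of the 9 rose with 1 library left out, and 0 fell. Ier2 missed the threshold with limma-voom (0.0518), upper-quartile scaling (0.0667), library totals (0.0902), a filter of 1 count (0.0586), the replicate block (0.0998) and without both libraries numbered 6 (0.145). With 1 library left out, 976 to 1501 features were higher and 696 to 1172 lower, and 0 to 4 within-family pairs passed (4 without L6). Of those 4, all but Nr4a2 over Nr4a3 already had the smallest possible p with all libraries. Without L6 the Nr4a1 to Nr4a3 difference reversed to -0.0301. The cause was not tested. No pairing of the libraries by column number was seen (correlations of deviations -0.0459 to 0.0014, with 0 of 4 controls nearest to their own number). A check on 4 controls cannot show that there was none. With the column numbers as a replicate block, 1006 features were higher and 751 lower, and 6 of the 9 genes rose.

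Counts of short lists moved by over 1.5 times. Against 2 higher and 1 lower, NR4A partners had 0 higher and 0 lower with the block or without C7, 1 higher without C8, L8 or with upper-quartile scaling or library totals, 1 higher and 0 lower without L5 or L7, and 0 lower without L6 or both numbered 6. Against 4, HSF1 targets had 2 higher with library totals or without C5, C7, C8, L5 or L7, and 1 with the block or without L8. Against 2, the promoter factors had 1 lower with limma-voom, the block or without each library except C6 and L5. Against 1, decay genes had 0 lower with limma-voom, the block or without any library but L6. Without L6 the MAX network had 1 higher, and without both numbered 6 it had 2, when the genes that control MYC protein or act with it had 4.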
